A study of Mus musculus with 12 samples.

Results

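Regulatory T cells (Treg) sorted from the vein wall were compared with Treg sorted from the spleen of the same kind of mouse, 14 days after a venous thrombus had been induced. The comparison covers the 8 libraries labelled vein wall or spleen (4 each) of the 12 in the series, the other 4 being thrombus Treg. It was made over every gene that the deposited count tables list with an exon in all layouts under one name, 20469 genes, of which 11462 had enough reads to be tested. Every group carried the same transgene and had the same operation. The mice were of the DEREG strain (C57BL/6, labelled Foxp3-DTR/EGFP), in which Foxp3 regulatory sequence on a transgene drives a diphtheria toxin receptor and EGFP. The inferior vena cava was ligated to reduce flow, and the cells were live CD45+CD4+EGFP[Foxp3]+CD69+ cells collected straight into lysis buffer. The spleen group is therefore the spleen of mice with a thrombus, sorted for the same CD69+ state. Libraries of mice without ligation, and of Treg without CD69, were not analysed here. The labels do not say whether one library came from one mouse or from several, so each p-value measures the spread between these samples, part of which may be technical. The labels give neither age nor sex.

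Treg are CD4 T cells that depend on the transcription factor Foxp3 and restrain other immune cells. In non-lymphoid tissue they take on local programmes. They carry chemokine receptors that direct their entry, sense local signals through cytokine and G protein-coupled receptors, and can make the growth factor amphiregulin, which acts on epithelial and stromal cells. CD69, which defined the sort, is raised early after antigen receptor stimulation and is also kept on T cells that reside in tissue. After a vein is occluded, the clot is slowly resolved and the wall around it is remodelled by infiltrating leukocytes and fibroblast-like cells.

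Between 12978484 and 55386086 exon reads were counted per library of the 2 tissues, so that 3 reads correspond to 0.0572 to 0.254 reads per 1000000 of the library's reads (CPM). A count of 0 allows a level up to that limit, for counting error only, since these amplified libraries carry no molecular identifiers. The files fall into 3 sets by their layout and gene models. Set 1 holds spleen 1. Set 2, on NCBI gene models, holds spleen 2 and vein wall 1. Set 3 holds spleen 3 and 4 and vein wall 2, 3 and 4. Of the thrombus samples, thrombus 1 is in set 1, thrombus 2 in set 2, and thrombus 3 and 4 in set 3. Set 1 holds no vein wall sample. With the set of files as covariate, spleen 1 therefore bears on vein wall against spleen only by way of thrombus 1. Ddx3y, a Y-linked gene, was at 0 reads in spleen 1 and at 60.9 to 118.5 CPM (before TMM scaling) in the other libraries of both tissues, so the set and the sex of the mice cannot be told apart. Spleen 3 and spleen 4, and likewise vein wall 3 and vein wall 4, differed far less than any other pair (mean chi-square per gene of 3.95 and 2.55, against 143 to 333 for the others of the 2 tissues). Each such pair was summed and counted as 1 sample, called spleen 3-4 and vein wall 3-4, which leaves 3 samples per tissue. Values below are CPM scaled by the trimmed mean of M values (TMM), given in the order 1, 2 and 3-4, and log2 fold changes are vein wall over spleen with their standard error (SE).

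The genes that defined the sort were present in all samples. Foxp3 had 557, 408 and 685 CPM in spleen and 359.9, 493 and 377 CPM in vein wall, and Ptprc, which encodes CD45, had 1696, 2000.2 and 964 and 1653, 860.4 and 1269.9 CPM. Cd4 had 159, 134 and 119.7 CPM in spleen and 75.8, 98.7 and 113 CPM in vein wall, where every sample was below every spleen sample, as in 6.49% of all tested genes. Foxp3, Ptprc and Cd4 were not called (log2 fold changes of -0.42 ± 0.36, -0.30 ± 0.35 and -0.52 ± 0.44, with adjusted p of 0.963, 0.966 and 0.963 by edgeR's quasi-likelihood test). Of the exon reads of Foxp3, 15.3% to 18.7% were unique in set 1, 75.4% to 80.6% in set 2 and 9.09% to 20.2% in set 3. Its levels across sets thus rest on unlike shares of unique reads. On unique reads its log2 fold change was -0.38 (edgeR adjusted p = 0.999). Cd69 had 256, 353 and 244 CPM in spleen against 892, 649 and 754 CPM in vein wall. Every vein wall sample was above every spleen sample for Cd69, with a log2 fold change of 1.43 ± 0.34 (edgeR adjusted p = 0.216, and 0.00886 when a covariate for the set of files was added). Over the 20 genes of the Treg identity list, 10 were above 0 and 10 below, with a median of -0.02 in log2 and no call. The median over all tested genes was -0.01.

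In vein wall Treg 13 genes were higher than in spleen Treg and none was lower, at a Benjamini-Hochberg adjusted p under 0.05 over the 11462 genes (0.113% and 0.0% of those tested). They were Coq10b, Pcsk1, Tgif1, Vps37b, Hilpda, Sgk1, Crem, Try4, Csrnp1, Ccr2, Ccr7, Gadd45b and Ifrd1. At an unadjusted p under 0.05, edgeR had 339 genes higher and 285 lower (2.96% and 2.49%). DESeq2 called 111 genes higher and 79 lower on the same samples (0.862% and 0.614% of its 12872 genes). With the set of files as a covariate edgeR called 45 genes higher and 3 lower (0.393% and 0.0262%), among them all 13. In each of the 13, every vein wall sample was above every spleen sample, a pattern that 6.8% of all tested genes had. The 13 were chosen for their difference between these same samples.

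**Figure D1:**
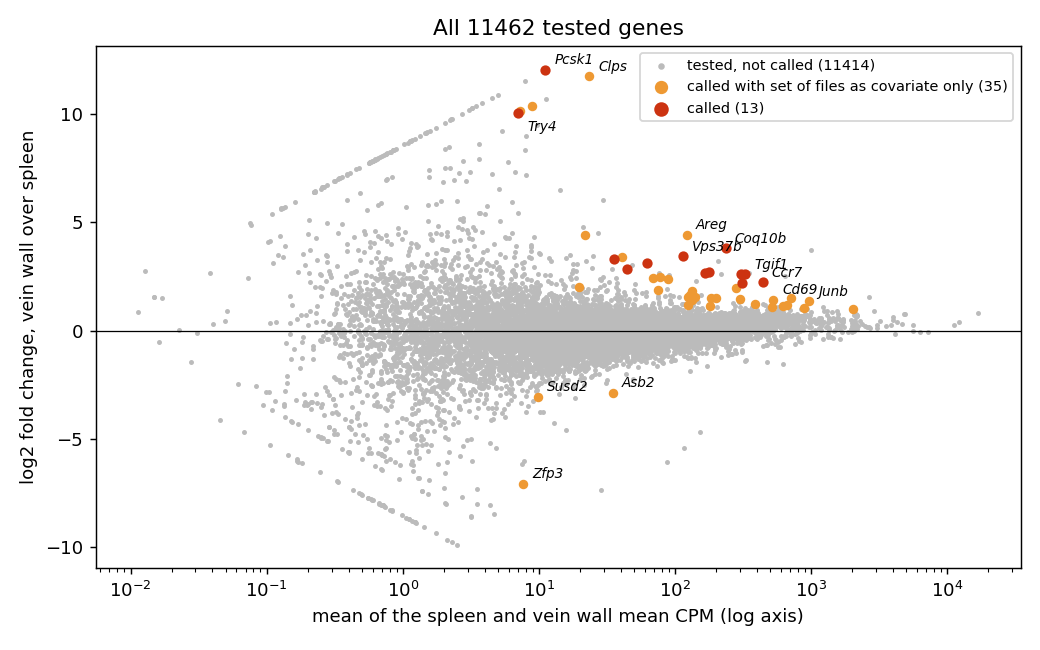
Log2 fold change of vein wall over spleen Treg (vertical axis) against the mean CPM of both tissues (horizontal, log axis), one point per tested gene. The 13 called genes all lie above 0, and the genes called only with the set of files as covariate lie on both sides, with 32 above 0 and 3 below.

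The same differences can be read within a set, where a vein wall sample and a spleen sample share the layout and gene models. On the log2(CPM + 0.5) scale, vein wall 1 minus spleen 2 (set 2) ranged from 1.88 to 5.39 over the 13 genes, and the mean of vein wall 2 and vein wall 3-4 minus spleen 3-4 (set 3) from 1.77 to 5.51. All 13 were thus more than 2-fold higher in both sets, as were 3.39% of all tested genes. The 13 were called from these same samples, so their level in both sets is no separate support. Over all tested genes the 2 within-set differences, which share no sample, had a Pearson correlation of 0.146 (n = 11462 genes), and 0.330 over the 3704 genes with a mean of at least 50 CPM. Genes are not independent replicates, and samples of one set share gene models.

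**Figure D2:**
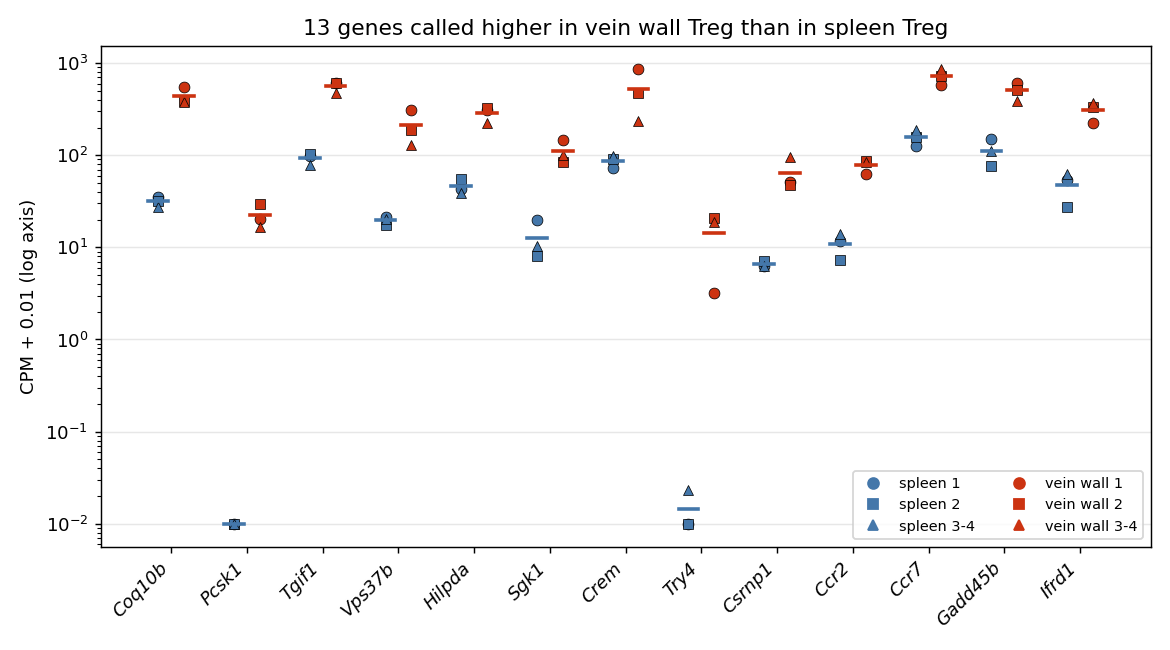
CPM + 0.01 (log axis) of the 13 called genes in each of the 3 spleen (blue) and 3 vein wall (red) samples, with a bar at the group mean. No gene has overlapping groups, and Pcsk1 and Try4 are at or next to 0 in every spleen sample.

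Of the transcriptional regulators among the 13, Crem (cAMP responsive element modulator, on chromosome 18) encodes a factor that binds cyclic AMP response elements and includes repressor forms induced by cyclic AMP itself. It had 72.5, 90.2 and 98.7 CPM in spleen and 870.01, 476 and 238 CPM in vein wall. The spleen samples lay close together, and the vein wall samples spread over a wide range, all above them. Its log2 fold change was 2.60 ± 0.43 (edgeR adjusted p = 0.0129), and the adjusted p was 0.094 without spleen 2 and 0.0669 without spleen 3-4. Tgif1 (chromosome 17, 70844205 to 70853546, minus strand), a homeobox repressor that restrains transcription by TGF-beta signalling, had 98.1, 102 and 77.6 CPM in spleen and 609.6, 603 and 468 CPM in vein wall. This was among the tightest differences of the 13, with samples of each tissue close to one another and a log2 fold change of 2.60 ± 0.32 (edgeR adjusted p = 0.000681). Csrnp1 (chromosome 9, 119971163 to 119984658, minus strand), a cysteine- and serine-rich nuclear protein induced early after stimulation, had 6.32, 7.15 and 6.26 CPM in spleen and 50.9, 48.00 and 95.6 CPM in vein wall, with a log2 fold change of 3.30 ± 0.56 (edgeR adjusted p = 0.013). Its gene lies inside a long model of Cx3cr1 on the same strand in sets 1 and 3, where only 0.0499% to 15.7% of its exon reads were counted as unique. In set 2, where the models do not overlap and all its reads were unique, it had 7.15 CPM in spleen 2 and 50.9 CPM in vein wall 1. On unique reads, where 7 genes were called higher (0.063%), its edgeR adjusted p was 0.991, and on all reads it was 0.0953 without spleen 2, 0.0932 without spleen 3-4 and 0.0594 without vein wall 3-4.

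Genes of growth arrest and of signalling kinases form a further group. Gadd45b (chromosome 10, 80930073 to 80932204, plus strand), a stress-induced regulator of MAP kinase signalling, had 151, 76.04 and 110.2 CPM in spleen and 615, 516 and 386 CPM in vein wall, a log2 fold change of 2.17 ± 0.40 (edgeR adjusted p = 0.0277). Ifrd1 (chromosome 12, 40201567 to 40248504, minus strand), a transcriptional co-regulator, had 53.4, 27.6 and 62.6 CPM in spleen and 224, 331 and 367 CPM in vein wall, a log2 fold change of 2.68 ± 0.49 (edgeR adjusted p = 0.0296). Neither gene's groups overlapped. For Gadd45b the edgeR adjusted p was 0.223 without spleen 2, 0.182 without spleen 3-4, 0.0771 without vein wall 1 and 0.0795 without vein wall 2. For Ifrd1 it was 0.0794 without spleen 1, 0.205 without spleen 2, 0.0865 without spleen 3-4, 0.0786 without vein wall 2 and 0.121 without vein wall 3-4. Sgk1 (chromosome 10, 21882184 to 21999903, plus strand), a kinase induced by serum, glucocorticoids and salt, had 19.7, 8.07 and 10.4 CPM in spleen and 148, 84.5 and 101 CPM in vein wall. The lowest vein wall sample was well above the highest spleen sample, with a log2 fold change of 3.13 ± 0.46 (edgeR adjusted p = 0.0039, and 0.055 without spleen 3-4).

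Among genes of metabolism and trafficking, Coq10b (chromosome 1, 55052770 to 55072702, plus strand), a mitochondrial coenzyme Q-binding protein, had the smallest p of all tested genes. It had 35.4, 31.7 and 27.4 CPM in spleen and 549, 389.9 and 381 CPM in vein wall. Samples within each tissue were close together and the tissues far apart, with a log2 fold change of 3.80 ± 0.43 (edgeR adjusted p = 0.000415). Its paralog Coq10a had 13.6, 19.6 and 14.98 and 21.7, 18.3 and 8.61 CPM, and neither it nor the other 9 tested genes of coenzyme Q synthesis were called. Hilpda (chromosome 6, 29272488 to 29275446, plus strand), a lipid droplet protein that inhibits triglyceride breakdown and is a known hypoxia target, had 42.8, 55.6 and 39.4 CPM in spleen and 309.9, 327 and 226 CPM in vein wall (log2 fold change 2.64 ± 0.37, edgeR adjusted p = 0.00241). It was the one called member of the hypoxia list, in which 14 of 23 tested genes were above 0 with a median of 0.42. Pdk1, a hypoxia target that restrains pyruvate oxidation, lay the other way, with 49.1, 38.7 and 48.4 CPM in spleen and 13.2, 22.9 and 21.1 in vein wall, but was not called (log2 fold change -1.25 ± 0.64, edgeR adjusted p = 0.923).

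Vps37b (chromosome 5, 124004641 to 124032270, minus strand), a subunit of the ESCRT-I complex that sorts ubiquitinated membrane proteins, had 21.1, 17.6 and 20.5 CPM in spleen and 314, 188 and 129 CPM in vein wall. Spleen samples were nearly equal, and the vein wall samples differed among themselves but stood far above them (log2 fold change 3.41 ± 0.48, edgeR adjusted p = 0.00241). Its 3′ end overlaps that of Hip1r on the other strand in the gene models of sets 1 and 3, where 13.8% to 35.7% of its exon reads were unique, and on unique reads its edgeR adjusted p was 0.748. In set 2 all its reads were unique, with 17.6 CPM in spleen 2 and 314 CPM in vein wall 1. These libraries do not mark strand, so reads of overlapping genes cannot be told apart. Of the other 6 tested ESCRT-I genes, none was called: Tsg101 had 134, 168 and 144 and 258, 216 and 175 CPM in spleen and vein wall, and Vps37a had 32.6, 50.7 and 29.9 and 28.6, 60.03 and 41.7 CPM.

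Pcsk1 (chromosome 13, 75089826 to 75134861, plus strand), the prohormone convertase PC1/3, was at 0 reads in all 3 spleen samples and at 20.5, 29.7 and 16.7 CPM in vein wall. Against 3 reads over the spleen group the vein wall level was at least 751-fold higher (edgeR adjusted p = 0.000492). Penk, the proenkephalin gene whose product is cleaved by such convertases, was high in both tissues, with 553, 865 and 879 CPM in spleen and 934, 862 and 652 CPM in vein wall, and did not differ beyond the spread (log2 fold change 0.09 ± 0.37, edgeR adjusted p = 0.992). Furin, a convertase of the secretory pathway, had 20.3, 7.31 and 2.87 and 5.41, 7.98 and 15.8 CPM (edgeR adjusted p = 1).

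The chemokine receptors Ccr2 and Ccr7 were both called. Ccr2 (chromosome 9, 124101950 to 124113557, plus strand), the receptor for Ccl2 that draws monocytes and T cells into inflamed tissue, had 11.7, 7.20 and 14.1 CPM in spleen and 62.5, 86.2 and 84.1 CPM in vein wall. Ccr7 (chromosome 11, 99144196 to 99155077, minus strand), which guides T cells towards lymph nodes and into draining lymph, had 126, 156 and 186 CPM in spleen and 578, 729 and 869 CPM in vein wall. In neither gene did the groups overlap (log2 fold changes 2.82 ± 0.48 and 2.22 ± 0.40, edgeR adjusted p = 0.013 and 0.0241). For Ccr2 the adjusted p was 0.139 without spleen 2, 0.0641 without spleen 3-4 and 0.0576 without vein wall 2, and for Ccr7 0.0846 without spleen 1, 0.139 without spleen 2, 0.0932 without spleen 3-4, 0.0768 without vein wall 2 and 0.121 without vein wall 3-4. Over 20 tested chemokine receptor genes 12 were above 0, with a median of 0.52. Cxcr3, the receptor of interferon-induced chemokines, lay in the opposite direction, with 387, 359 and 265 CPM in spleen against 180.5, 142 and 143 in vein wall and no overlap. It was not called (log2 fold change -1.12 ± 0.37, edgeR adjusted p = 0.652).

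Cyclic AMP response elements are the sites through which Crem and its relatives bind promoters, and the windows that held one are shown because Crem was among the calls. RefSeq windows from 250 bases before to 50 after a transcription start (GRCm38.p6) were matched by symbol for 10 of the 13 genes, and for 34 of the 45 called higher with the set of files as covariate. Both strands were searched for the full element TGACGTCA, for TGACG, which the full element also contains, and for the AP-1 element TGANTCA. The full element was in a window of 1 of the 10 genes, 5 of the 34 and 3.66% of the 9086 tested genes with a window (1.79% of all 32851 windows). TGACG was in 6 of the 10, 18 of the 34 and 35.7% of the tested genes (20.8% of windows). TGANTCA was in 2 of the 10, 3 of the 34 and 5.91% of the tested genes (7.81% of windows). A match is a description of the letters and shows no binding. The 5 full elements, in capitals, lie in these 30-base stretches, each 5′ to 3′ on the gene's strand:
Pcsk1 (chr13:75089768-75089797, plus strand): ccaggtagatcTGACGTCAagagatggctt
Areg (chr5:91139527-91139556, plus strand): gggctggtccgTGACGTCAcgggcggtggc
Nfkbid (chr7:30422344-30422373, plus strand): cgttagcgccgTGACGTCAgcgcgcggcgt
Btg2 (chr1:134079303-134079332, minus strand): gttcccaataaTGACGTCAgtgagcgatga
Ppp1r15a (chr7:45526269-45526298, minus strand): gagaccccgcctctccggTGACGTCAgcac

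The element began 78 bases before the start in Pcsk1, 61 in Areg, 51 in Nfkbid, 166 in Btg2 and 12 in Ppp1r15a. The window of Coq10b held no full element but 4 copies of TGACG on the opposite strand (CGTCA in the gene's direction). 3 of them, beginning 72, 61 and 50 bases before the start, lie in a single stretch, with the copies in capitals:
Coq10b (chr1:55052698-55052727, plus strand): CGTCAgcctagCGTCAgcgtggCGTCAtgg

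With the set of files as covariate, 32 genes joined the 13. Areg (amphiregulin, chromosome 5, 91139599 to 91148432, plus strand) had the smallest p of these and had 25.4, 1.31 and 6.35 CPM in spleen and 112, 264 and 324 CPM in vein wall. Spleen 1 alone was well above the other spleen samples, and every vein wall sample was above it. The log2 fold change was 4.41 ± 1.03 without the covariate (edgeR adjusted p = 0.405) and 5.52 ± 0.43 with it (edgeR adjusted p = 1.45e-06), and leaving out any one sample kept it under 0.05 in the fit with the covariate. Fosl2 and Junb, subunits of the AP-1 transcription factor, showed the same split within spleen. Fosl2 had 19.5, 0.546 and 1.60 CPM in spleen and 59.6, 56.3 and 107 CPM in vein wall (edgeR adjusted p = 0.762, and 0.000432 with the covariate). Junb had 1137, 208 and 273 CPM in spleen and 1469.9, 1419 and 1267 CPM in vein wall (edgeR adjusted p = 0.86, and 0.000432 with the covariate). In each, spleen 1, the only spleen or vein wall sample of set 1, lay nearest to vein wall. Without spleen 1 the edgeR adjusted p was 0.000519 for Fosl2, 0.0192 for Junb and 0.0137 for Areg in the fit with no covariate. Thrombus 1, also of set 1, had the highest thrombus level of all 3 genes, at 173, 3046 and 394 CPM.

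Nr4a3, an orphan nuclear receptor induced by antigen receptor signals, had 44.2, 21.1 and 21.7 CPM in spleen and 178, 92.01 and 178 CPM in vein wall (log2 fold change 2.37 ± 0.47, edgeR adjusted p = 0.0591, and 0.000432 with the covariate). Nfkbid, an atypical inhibitor-like protein of NF-kB that acts in Treg development, had 125, 58.3 and 132 CPM in spleen and 311, 329 and 253 CPM in vein wall (edgeR adjusted p = 0.375, and 0.00735 with the covariate). Stmn1, a microtubule-destabilising protein, had 63.6, 43.4 and 81.5 and 217, 205 and 135 CPM (edgeR adjusted p = 0.216, and 0.0288 with the covariate). In all 3 genes the groups did not overlap. Of the 45 higher genes 41 were at least 2-fold higher in both sets 2 and 3, as were 3.39% of all tested genes. The 45 were called from these same samples, so this is no separate support. In the fit with the covariate, 17 stayed called with each of the 6 samples left out in turn.

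**Figure D3:**
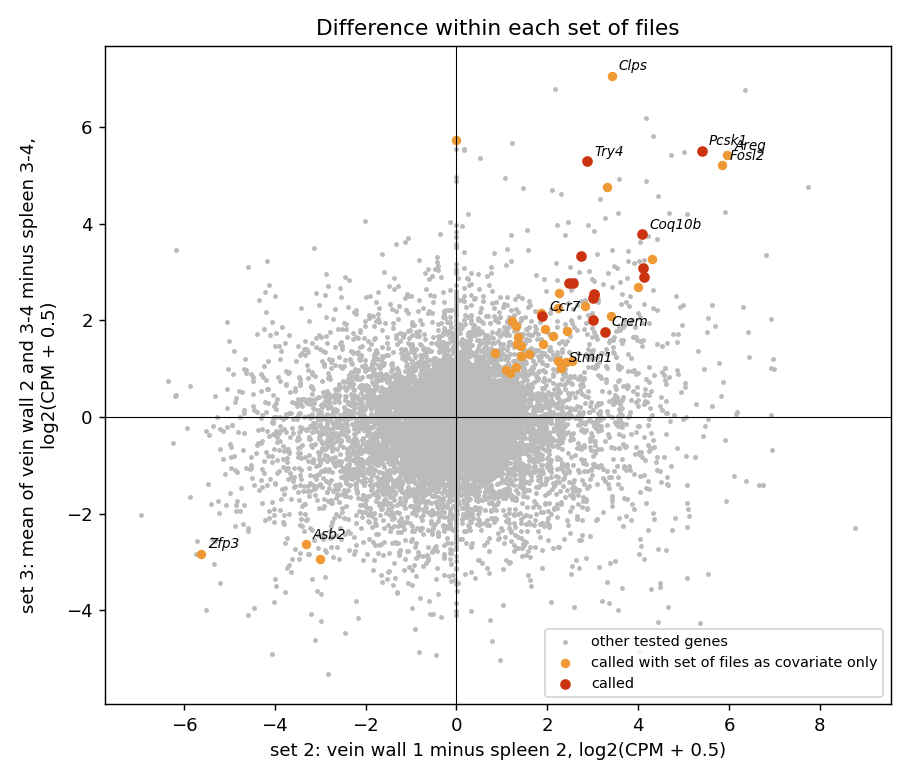
Difference between vein wall and spleen on the log2(CPM + 0.5) scale within set 2 (horizontal axis) and within set 3 (vertical axis), one point per tested gene. The 13 called genes (red) lie at 1.77 or more on both axes, and of the 45 genes called higher with the covariate 44 are above 0 on both. Both groups of genes were called from these same samples.

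The genes next in line, higher in vein wall by the smallest p without a call, were Dusp14, Nr4a3, Spty2d1, Dcn, Tnfsf4, Gem, Rgs2, Sparc, Btg2 and Dusp4. Their groups did not overlap, DESeq2 called all 10, and edgeR with the covariate called 5. Rgs2, which shortens signals of G protein-coupled receptors, had 313, 89.3 and 26.3 CPM in spleen and 1628, 2296 and 1664 CPM in vein wall. The spleen samples differed widely among themselves, and all lay below vein wall (log2 fold change 3.71 ± 0.71, edgeR adjusted p = 0.13, and 0.185 with the covariate). With no covariate, the edgeR adjusted p of Rgs2 was 0.000187 without spleen 1 and 0.0218 without spleen 3-4. It was 0.549 without spleen 2, and 0.297, 0.27 and 0.336 without vein wall 1, 2 and 3-4. Dusp14 and Dusp4 are phosphatases of MAP kinases. Dusp14 had 20.5, 32.1 and 19.4 CPM in spleen and 155, 98.1 and 142 CPM in vein wall (edgeR adjusted p = 0.0582, and 0.00163 with the covariate). Dusp4 had 5.05, 2.45 and 5.13 and 8.30, 42.7 and 86.9 CPM (edgeR adjusted p = 0.142, and 0.0528 with the covariate). Gem, a small GTPase that limits calcium channel activity, had 29.8, 42.2 and 5.81 and 118, 204 and 138 CPM (edgeR adjusted p = 0.0902, and 0.0657 with the covariate).

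Spty2d1, a histone chaperone, had 28.8, 9.66 and 27.1 CPM in spleen and 108, 140.1 and 99.2 CPM in vein wall (edgeR adjusted p = 0.0747, and 0.00371 with the covariate). Btg2, an anti-proliferative gene, had 166, 144 and 167 CPM in spleen and 387, 478 and 449 CPM in vein wall (edgeR adjusted p = 0.133, and 0.016 with the covariate). The samples of each tissue lay close together for Btg2. Tnfsf4, which encodes the ligand OX40L and is best known from antigen-presenting cells, had 1 read over the 3 spleen samples and 4.44, 5.25 and 33.6 CPM in vein wall (edgeR adjusted p = 0.0803, and 0.0394 with the covariate). The ratio of the pooled levels was 2204, with an exact 95% counting interval from 395 to 87121 that covers counting error only. Dcn and Sparc, which encode matrix proteins, are given below with the markers of other cells.

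No gene was called lower without the covariate. The 10 with the smallest p were Zfp3, Asb2, Egr2, Sfmbt1, Muc16, Serpina3g, Gbp10, Btbd2, Susd2 and Zfp39, and in all 10 every vein wall sample was below every spleen sample, as in 6.49% of tested genes. DESeq2 called 8 of these 10, and with the covariate edgeR called Zfp3, Asb2 and Susd2. None of these 3 stayed called with every single sample left out in turn. Asb2, which targets proteins for ubiquitination in haematopoietic cells, had 69.5, 51.1 and 64.4 CPM in spleen and 4.70, 12.8 and 7.75 CPM in vein wall (log2 fold change -2.87 ± 0.64, edgeR adjusted p = 0.136, and 0.0313 with the covariate). Zfp3, a zinc finger gene, had 5.40, 36.7 and 3.42 CPM in spleen and 0.257, 0.109 and 0 CPM in vein wall (edgeR adjusted p = 0.0902, and 0.0225 with the covariate). Susd2, a sushi domain membrane protein, had 17.9, 10.8 and 24.2 CPM in spleen and 0.901, 3.17 and 2.30 CPM in vein wall (edgeR adjusted p = 0.448, and 0.0376 with the covariate). All 3 were lower in vein wall within set 2 and within set 3.

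Egr2, a transcription factor induced by antigen receptor signals that limits T cell activation, had 40.3, 56.9 and 60.1 CPM in spleen and 11.8, 6.12 and 11.5 CPM in vein wall (log2 fold change -2.42 ± 0.61, edgeR adjusted p = 0.295). Its relative Egr1 had 59.7, 79.8 and 77.9 CPM in spleen and 16.7, 31.9 and 33.1 CPM in vein wall (edgeR adjusted p = 0.806). Both Egr genes thus lay lower in vein wall in every sample, while Nr4a3, Fosl2 and Junb of the same early-response class lay higher, although none of the 5 was called without the covariate. Sfmbt1, a Polycomb-related repressor with MBT repeats, had 23.8, 9.11 and 17.3 CPM in spleen and 2.19, 2.24 and 2.74 CPM in vein wall, the latter within a narrow range (edgeR adjusted p = 0.375, DESeq2 2.27e-07). Serpina3g, a protease inhibitor of activated T cells, had 431, 537 and 458 and 232, 176 and 156 CPM (edgeR adjusted p = 0.405, and 0.0565 with the covariate). Gbp10, an interferon-induced GTPase with near-identical paralogs, had 115, 47.7 and 78.6 and 26.3, 19.8 and 5.90 CPM, and on unique reads its edgeR adjusted p was 0.991. Muc16, a membrane mucin, had 5.76, 21.6 and 0.868 CPM in spleen and 0, 0 and 0.0507 CPM in vein wall (edgeR adjusted p = 0.375). Zfp39, a zinc finger gene, had 16.2, 69.01 and 6.13 and 0.0644, 3.55 and 0.152 CPM (edgeR adjusted p = 0.462).

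**Figure D4:**
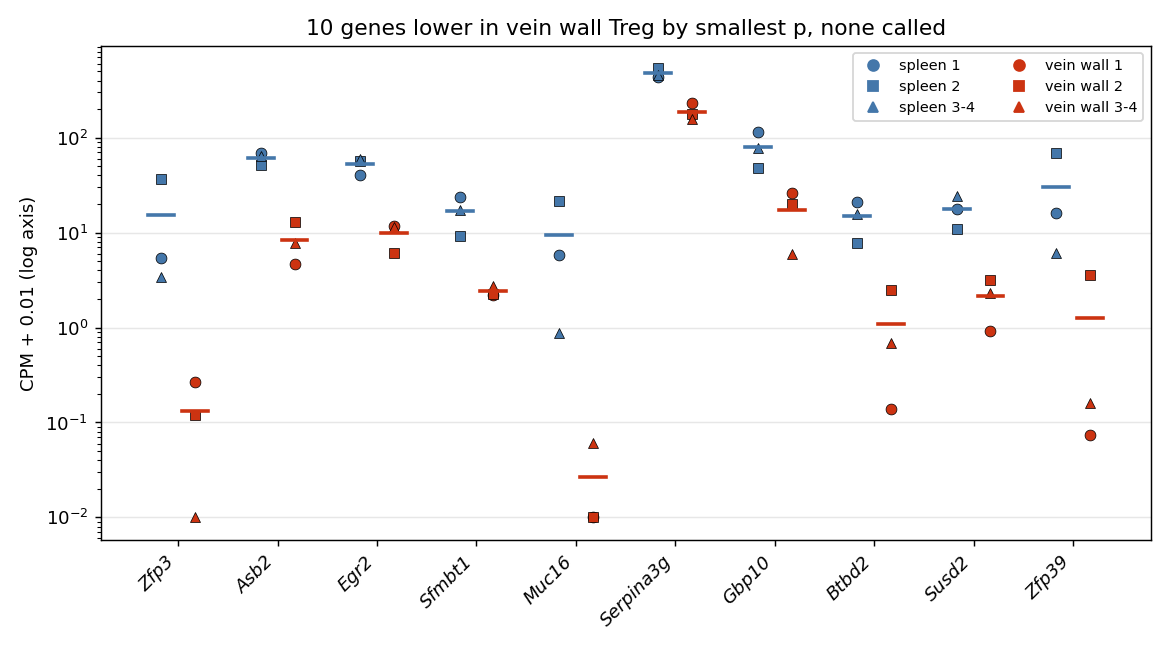
CPM + 0.01 (log axis) of the 10 genes lower in vein wall by the smallest p, in each spleen (blue) and vein wall (red) sample, with a bar at the group mean. No gene has overlapping groups, and none passed the adjusted threshold without the set of files as covariate.

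Gene lists, chosen with earlier results of these data known, are described by counts and medians. Their called members and the member with the smallest p were named by rule, and other members, given to show the range of a list, were chosen after their values were seen. The cyclic AMP and CREB list had 18 of 28 tested genes above 0 and a median of 0.34, in log2, where all tested genes had a median of -0.01 and 49.1% above 0. Crem was its 1 call, and 3 were called with the covariate. In 8 of the 28 every vein wall sample was above every spleen sample, as in 6.8% of all tested genes. Among the 8 was Nr4a1 with 145, 73.5 and 141 CPM in spleen and 727, 298 and 286 CPM in vein wall (edgeR adjusted p = 0.216). No gene of the list lay wholly below spleen, as 6.49% of all tested genes did. The AP-1 and immediate early list was mixed, with 18 of 29 above 0 and a median of 0.62. Of the 29, 8 genes lay wholly above and 3 wholly below, beside 6.8% and 6.49% of all tested genes. Its 1 call was Csrnp1. Summed over the list, spleen had 6178, 2349.7 and 2944 CPM and vein wall 4655, 5167 and 6755 CPM, so that spleen 1 lay within the range of vein wall.

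The growth arrest and integrated stress list had 2 calls, Gadd45b and Ifrd1, 6 with the covariate and a median of 0.40 over 20 tested genes. Ppp1r15a, which relieves the translational arrest of that response, had 255, 42.2 and 49.7 CPM in spleen and 678, 400.01 and 259 CPM in vein wall (edgeR adjusted p = 0.629, and 0.016 with the covariate). Atf4, its central transcription factor, had a log2 fold change of 0.43 ± 0.39 (edgeR adjusted p = 0.963). The tissue residence list had a median of 0.92 over 13 tested genes with no call and 4 with the covariate, which were Cd69, Hopx, Rgs1 and Bhlhe40. Its median differed in sign between the sets, at -0.65 within set 2 and 1.09 within set 3. Hopx, a homeodomain protein known in Treg and resident T cells, had 401, 392 and 437 CPM in spleen and 969.6, 992 and 800.2 CPM in vein wall (edgeR adjusted p = 0.336, and 0.0239 with the covariate). Prdm1, a repressor known for residency, lay the other way in every sample, with 47.2, 42.8 and 30.8 CPM in spleen and 14.2, 9.90 and 9.75 in vein wall (edgeR adjusted p = 0.903). Itgae, the integrin chain CD103, had 64.5, 83.2 and 36.3 and 37.1, 33.1 and 63.9 CPM, with overlapping groups.

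Tissue and effector Treg genes were above 0 in 21 of 29, with a median of 0.62, no call and 1 with the covariate, Areg. Il1rl1, the interleukin 33 receptor, had 10.5, 0.818 and 18.5 CPM in spleen and 33.1, 43.8 and 24.9 CPM in vein wall (log2 fold change 1.76 ± 0.79, edgeR adjusted p = 0.884). Il10, an inhibitory cytokine, had 57.7, 10.6 and 14.3 and 96.01, 146 and 43.7 CPM (edgeR adjusted p = 0.801), with spleen 1 inside the range of vein wall. Ctla4, a checkpoint receptor of Treg, had 786, 532 and 666 CPM in spleen and 888, 1250.1 and 1036 CPM in vein wall (edgeR adjusted p = 0.9). No other member of the suppressive mediator list than Areg was called with the covariate, and its median was 0.25. Th1-like genes had 6 of 14 above 0 with a median of -0.46, and follicular genes 4 of 14 with -0.55. In the follicular list Tox2 had 55.6, 15.7 and 16.6 CPM in spleen and 5.21, 9.62 and 7.47 CPM in vein wall (edgeR adjusted p = 0.762).

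Of 32 nuclear genes of oxidative phosphorylation 30 were above 0, with a median log2 fold change of 0.39 and none called or under an unadjusted p of 0.05 by edgeR. Ndufb3, a complex I subunit, had 171, 202 and 224 CPM in spleen and 269, 315 and 388 CPM in vein wall (edgeR adjusted p = 0.923). Summed over the list, spleen had 10782, 15380.00 and 15816 CPM and vein wall 16832, 21432 and 18530.00 CPM. All 3 vein wall sums were above all 3 spleen sums, with spleen 1 the lowest. The list's median was 0.16 within set 2 and 0.38 within set 3. Of the iron genes, Fth1, which encodes ferritin heavy chain, had 1838, 2488 and 1742 CPM in spleen and 4457, 3946 and 2902 CPM in vein wall (log2 fold change 0.90 ± 0.34, edgeR adjusted p = 0.777). Hmox1, which degrades heme, and the iron exporter Slc40a1 lay the other way: Hmox1 had 28.5, 49.97 and 31.8 CPM in spleen and 6.82, 3.94 and 8.33 in vein wall, and Slc40a1 had 10.5, 0.382 and 15.2 and 0, 0.0547 and 0.0253 CPM (edgeR adjusted p = 0.754 and 0.558). Both are high in red pulp macrophages. Of 12 tested macrophage and monocyte markers 9 were below 0 with none called, and C1qb had 14.5, 43.9 and 41.1 CPM in spleen and 4.38, 4.21 and 3.01 in vein wall. The summed markers ranged from 117 to 312 CPM in spleen and from 29.8 to 495 CPM in vein wall, and their part in the iron genes was not tested.

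The glucocorticoid list had 1 call, Sgk1, and a median of 0.28, and the lipid list 1, Hilpda, and 0.42. Medians of the TGF-beta list, with Tgif1 as its 1 call, and of the ESCRT-I, coenzyme Q and prohormone lists were 0.15, 0.09, 0.03 and 0.22. Lists of NF-kB, heat shock chaperones, TNF receptors and ligands, cytokine receptors, interferon response, proliferation, glycolysis and Kruppel-like factors held no call, with medians of 0.06, -0.01, 0.28, 0.22, 0.02, 0.27, 0.17 and 0.27. The Th2-like, Th17-like, iron, coagulation and matrix lists held none either, with medians of 0.60, 0.67, 0.28, 0.22 and -0.14. The naive and recirculation list had Ccr7 as its 1 call and a median of 0.12. In the coagulation list Plaur, the urokinase receptor, had 2.20, 0.0546 and 0.565 CPM in spleen and 117, 30.9 and 26.3 CPM in vein wall (log2 fold change 6.00 ± 1.42, edgeR adjusted p = 0.387, and 0.0547 with the covariate). Its groups did not overlap.

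Other members with the smallest p of their list were of varied function. Il2ra, which encodes the interleukin 2 receptor chain CD25, had 204, 167 and 262 CPM in spleen and 398, 361 and 402 CPM in vein wall (edgeR adjusted p = 0.85). Cd40lg, the ligand of CD40, had 31.6, 63.7 and 20.4 and 223, 58.99 and 49.3 CPM (edgeR adjusted p = 0.835). Ifngr1, a receptor chain for interferon gamma, had 250.5, 406 and 399 and 873, 599 and 551 CPM (edgeR adjusted p = 0.757). None of these receptors and ligands was called. Hk2, a hexokinase of glycolysis, had 3.77, 4.69 and 11.2 CPM in spleen and 13.8, 27.9 and 18.4 CPM in vein wall (edgeR adjusted p = 0.864). Dnaja1, a co-chaperone, had 446, 811 and 469 and 1824, 943 and 833 CPM (edgeR adjusted p = 0.805, and 0.0426 with the covariate). Stat2, a signal transducer of type I interferon, had 52.8, 24.4 and 27.1 and 9.40, 18.97 and 8.41 CPM (edgeR adjusted p = 0.815). Klf3, a Kruppel-like repressor, had 158, 71.1 and 109 CPM in spleen and 47.5, 27.4 and 64.4 CPM in vein wall (edgeR adjusted p = 0.861).

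Markers of other cells moved with the tissue in several lists. In bulk samples a gene carried by a few other cells and a gene expressed weakly by the Treg cannot be told apart. Of 18 tested pancreatic acinar genes 16 were above 0, with a median of 5.89, and summed levels were 30.2, 122 and 23.05 CPM in spleen and 94.7, 269 and 320.1 CPM in vein wall, where spleen 2 lay above vein wall 1. Try4 (chromosome 6, 41302269 to 41305532, plus strand), a trypsin and 1 of the 13 calls, belongs to this list. It had 1 read over the 3 spleen samples and 3.15, 20.7 and 18.6 CPM in vein wall (edgeR adjusted p = 0.0129). The ratio of pooled levels was 1720.5, with an exact 95% counting interval from 308 to 68013. Trypsin genes are near-identical and share reads, and on unique reads its edgeR adjusted p was 0.314. Clps, which encodes pancreatic colipase, had 1 read in spleen and 4.83, 65.98 and 70.2 CPM in vein wall (edgeR adjusted p = 0.503, and 3.59e-05 with the covariate). Cela3b, Try10, Cpb1 and Prss3 had no read in any spleen sample, and Cela1, which the Treg samples of both tissues held, had 20.7, 113 and 22.4 CPM in spleen and 25.2, 46.9 and 58.1 CPM in vein wall. The part of such RNA in the other 12 calls was not tested. Without vein wall 3-4, the sample with the highest acinar sum, Csrnp1, Ccr7 and Ifrd1 were not called, Dcn was, and Try4 still was. The adjusted p of Try4 was 0.055 without spleen 1, 0.139 without spleen 2 and 0.182 without spleen 3-4.

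Fibroblast markers were summed to 0.568, 0.546 and 1.67 CPM in spleen and 40.2, 72.1 and 15.2 CPM in vein wall, and 3 of the 11 had no read in any spleen sample. Decorin (Dcn) had 0.0711, 0 and 0.0131 CPM in spleen and 7.72, 50.5 and 0.279 CPM in vein wall, mostly in vein wall 2 (edgeR adjusted p = 0.0766). Sparc, a secreted matrix glycoprotein, had 3 reads over the spleen samples and 6.11, 12.5 and 17.02 CPM in vein wall (edgeR adjusted p = 0.133). B and plasma cell markers summed to 198, 179 and 329 CPM in spleen and 1489, 462 and 447 CPM in vein wall, with vein wall 1 far above the rest. Ms4a1, which encodes CD20, had 10.3, 5.67 and 9.47 and 149, 17.3 and 15.6 CPM (edgeR adjusted p = 0.405). Only 6.62% to 33.2% of the exon reads of Ms4a1 were unique, and on unique reads its edgeR adjusted p was 0.988. Antigen-presentation genes of the dendritic cell list behaved alike, with H2-Eb1 at 35.5, 5.84 and 77.6 CPM in spleen and 806, 172 and 141 CPM in vein wall, and a sum of 1211, 1456 and 2388 against 12953, 2502 and 2584 CPM. Itgax, which defines dendritic cells as CD11c, had 3.70, 0 and 0.0131 CPM in spleen and 0, 0.437 and 2.61 CPM in vein wall, and Clec9a had no read in spleen. All 3 vein wall samples lay above all spleen samples in both sums. The part of these cells in the calls was not tested.

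Erythroid genes ran the other way, at 1854, 64.4 and 359 CPM in spleen and 25.2, 5.47 and 51.7 CPM in vein wall. So did Klrb1c, the NK1.1 receptor of natural killer cells, with 18.8, 40.6 and 14.7 CPM in spleen and 2.12, 1.04 and 0.684 in vein wall (edgeR adjusted p = 0.529). The CD8 T and natural killer list that holds Klrb1c did not, with 5 of 9 tested genes above 0 and a median of 0.06. Of the vessel wall markers, Vwf (endothelial) and Myh11 (smooth muscle), chosen after their values were seen, were near 0 in both tissues. No read was found in spleen for 4 endothelial and 3 smooth muscle markers, and in vein wall for 1 of each. Of 10 endothelial markers, Pecam1, which T cells also express, had 23.5, 43.1 and 53.3 CPM in spleen and 41.8, 44.1 and 48.02 in vein wall, and Vwf had 0.711, 0 and 0 and 0, 0.0547 and 0 CPM. Among 9 smooth muscle markers, Myh11 had 0, 0 and 0.0131 and 0, 0 and 0.0507 CPM, and the sum of 24.02, 46.8 and 26.3 CPM in spleen and 83.2, 58.1 and 30.04 CPM in vein wall was nearly all Actg2 (23.1, 40.5 and 26.03 and 82.6, 56.2 and 26.9 CPM). Adipocyte markers summed to 1.71, 5.02 and 1.39 CPM in spleen and 16.4, 10.7 and 14.1 in vein wall, macrophage markers to 117, 149 and 312 and 495, 157 and 29.8, CD8 T and natural killer markers to 385, 618 and 243 and 715, 704 and 526. Sums for neutrophils, platelets and mast cells were at most 6.93 CPM in any sample, and 12 of the 13 cell type lists held no called gene.

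**Figure D5:**
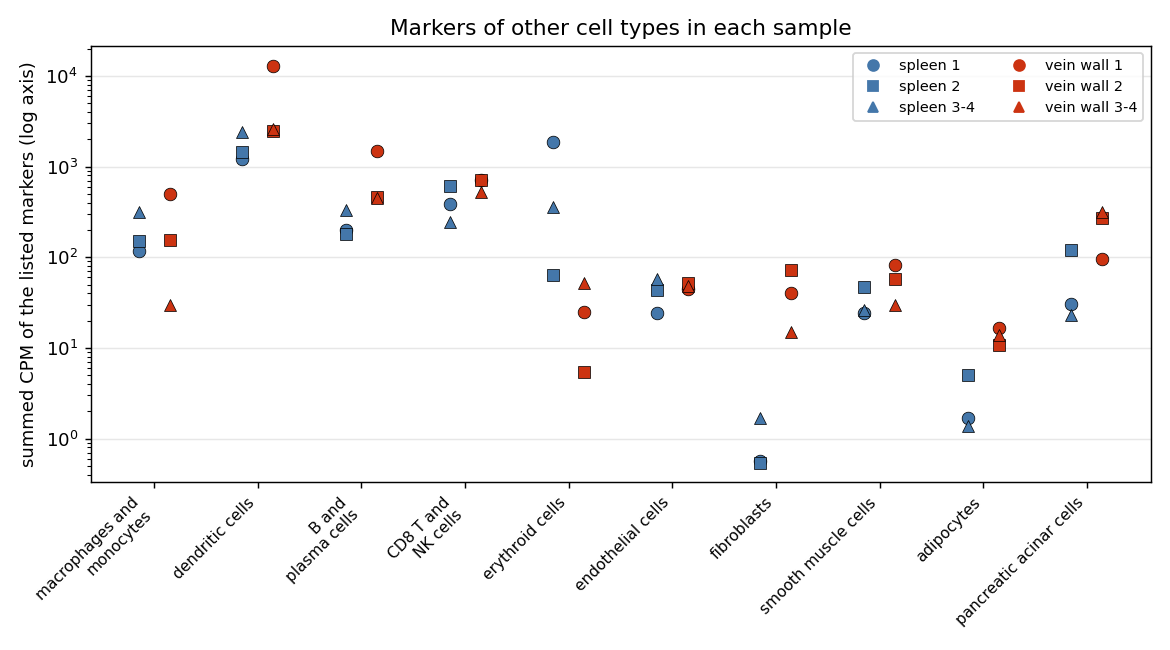
Summed CPM (log axis) of marker genes of 10 other cell types in each spleen (blue) and vein wall (red) sample. Fibroblast, adipocyte, B and plasma cell and dendritic cell sums of all vein wall samples lie above all spleen samples, with vein wall 1 highest in the last 2, and erythroid sums lie below.

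Intron reads, counted in the same files apart from exon reads, reflect in part unspliced RNA. Over 11601 genes tested on intron reads 1 was higher in vein wall and none lower (0.00862% and 0.0%), and 310 were higher and 453 lower at an unadjusted p under 0.05 by edgeR (2.67% and 3.9%). The 1 gene was Ramp3, which encodes a partner protein of receptors for adrenomedullin and related peptides. Its intron level was 1.92, 0 and 0.213 CPM in spleen and 167, 161 and 127 CPM in vein wall. Spleen was next to 0 and the vein wall samples were nearly equal (log2 fold change 7.83 ± 1.00, edgeR adjusted p = 0.0179), and without spleen 2, spleen 3-4 or vein wall 2 it was not called. Its exon level was 4.12, 6.60 and 7.18 CPM in spleen and 56.8, 27.4 and 10.9 CPM in vein wall (edgeR adjusted p = 0.5). With the covariate 6 genes were called on intron reads (0.0517%), Ramp3, Hopx, Dennd4a, Ell2, Gramd3 and Eprs. Ell2, an elongation factor, had 71.5, 13.8 and 31.8 intron CPM in spleen and 489, 344 and 859 in vein wall, but 12.4, 20.2 and 7.24 and 16.9, 2.90 and 25.1 exon CPM (edgeR adjusted p with the covariate = 0.0366 for introns and 0.907 for exons). Of the 13 called genes 12 were tested on intron reads, and all 12 had a log2 fold change above 0, from 0.005 to 3.65, as had 49.1% of all genes tested. The smallest, 0.005, was that of Csrnp1, and 6 of the 12 had an unadjusted p under 0.05. The 13 were called on exon reads of these same libraries, so the shared direction is no separate support.

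Thrombus Treg of the same series were set against vein wall Treg. No gene was called in either direction between vein wall and thrombus (0.0% of the genes tested, by edgeR's quasi-likelihood test), and 83 genes were higher and 252 lower in vein wall at an unadjusted p under 0.05 (0.724% and 2.2%). Over the 13 genes the log2 difference of vein wall from thrombus ran from -0.86 to 0.57, with an adjusted p of 1 in each. Coq10b had 276, 503, 229.5 and 178 CPM in the 4 thrombus samples, a difference of 0.57 ± 0.35 in log2 from vein wall. Pcsk1 had 43.98, 6.71, 21.5 and 29.9 CPM in thrombus, a log2 difference of -0.19 ± 0.70. The comparisons of thrombus and of vein wall with spleen share the spleen samples and are given side by side. Coq10b had a log2 fold change of 3.24 ± 0.40 for thrombus over spleen (edgeR adjusted p = 0.000715) beside 3.80 ± 0.43 for vein wall. For thrombus over spleen the log2 fold change was 2.34 ± 0.31 for Tgif1, 4.05 ± 0.48 for Vps37b, 2.56 ± 0.36 for Hilpda and 2.90 ± 0.45 for Sgk1 (edgeR adjusted p = 0.00121, 0.000519, 0.00195 and 0.00543). It was 2.45 ± 0.41 for Crem, 4.07 ± 0.56 for Csrnp1, 2.97 ± 0.47 for Ccr2 and 2.37 ± 0.39 for Ccr7 (edgeR adjusted p = 0.0106, 0.00193, 0.00557 and 0.00804). For Gadd45b and Ifrd1 it was 2.14 ± 0.38 and 2.62 ± 0.48 (edgeR adjusted p = 0.019 and 0.0233). Pcsk1 and Try4, at or next to 0 in spleen, had an edgeR adjusted p of 0.000519 and 0.00543 for thrombus over spleen. A p that misses the threshold does not show that the tissues are alike.

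Of the 10 genes with the smallest p below spleen, 6 lay below thrombus too in every sample. Sfmbt1 had 18.6, 15.8, 17.7 and 24.02 CPM in thrombus, above all vein wall samples as the spleen samples were (log2 difference -2.99 ± 0.73, edgeR adjusted p = 1). Susd2 had 31.6, 3.41, 52.5 and 84.7 CPM in thrombus (log2 difference -4.33 ± 0.91, edgeR adjusted p = 0.824), and Zfp3 had 8.47, 12.8, 6.44 and 54.2 CPM (log2 difference -7.50 ± 1.49, edgeR adjusted p = 0.824). Btbd2, a BTB domain protein, had 20.96, 7.80 and 15.9 CPM in spleen, 0.129, 2.46 and 0.684 in vein wall and 12.01, 8.87, 11.7 and 40.3 in thrombus (edgeR adjusted p = 1 against thrombus). Muc16 had 4.40, 0.171, 0.429 and 1.04 CPM in thrombus and Zfp39 had 13.6, 10.2, 3.97 and 7.72 CPM. In these 6 genes, of the 10, every vein wall sample lay below every sample of both other tissues. The 10 were chosen for their difference from spleen. Of all tested genes 744 lay wholly below spleen, and 99 of these (0.864% of all tested) lay below every thrombus sample too. By contrast Asb2 had 24.9, 9.50, 35.97 and 11.7 CPM in thrombus, so that its vein wall and thrombus samples overlapped.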

How the data were processed

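RNA of sorted Treg (2 ng) was amplified with SmartSeq v4 over 12 cycles and 1 ng of cDNA was tagged with Nextera XT, per the labels' protocols. These libraries carry no strand information and no molecular identifiers, so limits from a count of 0 cover counting error only. The deposited files hold counts of exon and intron reads per gene, per the file headers. The submitters' processing notes name the build GRCm38. Aligner and counter were not given in the sources used here. Total exon reads include reads with more than 1 match (13.6% to 21.8% of a library's exon reads in the 2 tissues).

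Genes were joined by name across the 3 sets of files, which dropped 11 names on another chromosome or strand and kept 90.9% to 94.8% of exon reads. Near-duplicate libraries were summed. Counts of all 10 samples were scaled by TMM, filtered with filterByExpr and fitted with edgeR 4.0.16 (R 4.3.3, robust quasi-likelihood test, Benjamini-Hochberg adjustment), and genes under an adjusted p of 0.05 were called. SE was derived from the log2 fold change and its F statistic. The scripts were tested on simulated data with known changes in vein wall, where fewer lowered than raised genes were called. At 2 in log2, 18 of 49 raised genes were called, and at -2, 9 of 49 lowered genes. At 4 it was 37 of 49, and at -4, 27 of 48. DESeq2 1.42.0 and the other alternatives are described in the closing section. The members and gene lists were chosen with earlier results of these data known. Genes named were all calls, the 10 higher and 10 lower uncalled genes with the smallest p and a mean of at least 5 CPM in one tissue, up to 15 per direction called with the covariate, each list's called members or smallest p, and the sort markers. Other genes named were chosen after their values were seen. Samples were not paired by replicate number, since the labels do not say that the numbers tie tissues of one mouse. A check is given in the closing section.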

Additional observations from a re-analysis of the deposited data

How the results depend on the processing

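With 3 samples per tissue the calls depended on the processing. Against 13 higher and 0 lower genes, edgeR gave 45 and 3 when a covariate for the set of files was added, 60 and 6 without a filter, 41 and 9 with the 12 libraries kept apart, and DESeq2 111 and 79. All 13 were among the higher genes in each of these 4. On unique exon reads 7 were called higher, all among the 13. Without set 1, 25 were called higher, with 10 of the 13. Without set 1 but with the covariate, an alternative chosen after seeing the data, the numbers were 53 and 4. Leaving out each sample in turn gave 6 to 26 higher and 0 to 1 lower genes, and with the covariate, also added after seeing the data, 21 to 59 and 0 to 5 (34 higher without spleen 3-4). Of the 13, 5 stayed called with every sample left out in turn without the covariate (Coq10b, Pcsk1, Tgif1, Vps37b and Hilpda) and 8 were lost at least once, with 5 left without spleen 3-4 and 6 without spleen 2. The lowest count, 6, came without spleen 2 and without spleen 3-4, and the highest without spleen 1.

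Samples with the same replicate number did not deviate together (correlations of -0.10, -0.08 and 0.05 over genes). This check cannot exclude that the numbers pair samples of one mouse. Spleen 1 and vein wall 1 lie in different sets, as do spleen 2 and vein wall 2, and the labels do not say. With the replicate number as a block 21 genes were higher and 1 lower, and with the block and the set of files 29 and 28, with 11 of the 13 among the higher. On intron reads 6 genes were higher with the covariate, and leaving out each sample gave 0 to 1. No gene was called between vein wall and thrombus under any alternative run.

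Some uncalled genes changed sign, and the cause was not tested. Leaving out each sample in turn, Il1r1 ran from -0.22 (log2, without vein wall 1) to 9.23, Ppbp from -1.63 (without vein wall 3-4) to 8.65, and Pecam1 from -0.12 (without spleen 1) to 0.42. Pecam1 was also at -0.12 without set 1, and at -0.14 without set 1 and -0.15 without spleen 1 with the covariate. Cd4 was at 0.030 and Ptprc at 0.29 with the replicate block and the set of files. Ptprc was at 0.11 without spleen 2 and at 0.045 without vein wall 2, each with the covariate. Of the other values of named genes under an alternative, 1346 kept direction and side of the threshold, 199 passed it only there and 40 lost it.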

Other observations

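Values of further members of the gene lists are given here without explanation. Il1r1 and Fabp4 had the smallest p of a list, and the others were chosen after their values were seen. Il5, a cytokine of type 2 immunity, had no read in any spleen sample and 22.6, 7.65 and 0.0253 CPM in vein wall. Vein wall 3-4 was close to 0 and vein wall 1 highest. Cd36, a fatty acid and thrombospondin receptor, had no read in spleen and 5.60, 1.15 and 6.89 CPM in vein wall. Il1r1, which binds interleukin 1, had 0.0711, 0 and 0 CPM in spleen and 9.33, 0 and 0.0253 CPM in vein wall, almost all of it in vein wall 1. Neither Il5 nor Cd36 was called (edgeR adjusted p = 0.912 and 0.448), and Il1r1 was not either (edgeR adjusted p = 0.837). Fabp4, a fatty acid binding protein of adipocytes and macrophages, had 0.355, 0 and 1.38 CPM in spleen and 13.7, 8.53 and 12.2 CPM in vein wall. The adipocyte hormone Adipoq had no read in spleen and 0, 1.15 and 0.734 CPM in vein wall.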
